A study of Mus musculus with 6 samples.

Results

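The mTORC1 complex and its amino acid sensing machinery were examined as a set of 37 genes in RNA-Seq of cortical neurons in which Neurod2 had been silenced. The set was named gene by gene for known membership of the mTOR complexes, the TSC complex, the Rag GTPases and the Ragulator, GATOR1 and GATOR2, the sestrins, the folliculin complex and the downstream effectors. The rule uses no measured value, but the genes were chosen with earlier results of these data known, and the sestrin Sesn2 and the repressor Eif4ebp1 are not among them. The table of levels names positions in the mm10 genome and not genes, so a row of the table was taken for a member where its span and the annotated span of the gene overlapped by at least 0.5 of their union. By this rule 35 of the 37 genes had a row, with 50 rows in all out of 32357 in the table. Rows carry no strand, but their numbers run along each chromosome in 2 passes: of 14157 rows that stand alone at a position and match 1 protein-coding gene, all 7080 of the first pass matched a plus-strand gene and all 7077 of the second a minus-strand gene. The strand of each row was read from this order, after the data had been seen, and 38 of the 50 rows lay on the strand of the member. The members' values below are those of the row with the highest mean level on the gene's own strand. The rule set earlier took the highest row on either strand, which gives another row for Rptor, Nprl3, Wdr59 and Tfeb, and both are printed for these 4.

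Primary cultures were made from cerebral cortex of Balb/c mouse embryos at E14.5 (embryonic day), and the cell suspension was nucleofected with shRNA plasmids of the pSuperneoGFP type before plating in serum-containing medium. The Neurod2 knockdown group held 4 libraries, 2 from each of the 2 shRNAs against Neurod2, a transcription factor of excitatory neurons. The non-silencing group held 2 libraries from cultures that received a control plasmid by the same procedure. Total RNA was collected at day 4 in vitro according to the sample labels, while the study's methods give a later day, and was read as 50 bp single ends. Both groups therefore share the strain, the age, the plasmid backbone and the electroporation, and neither contains cells without an shRNA. No sorting of plasmid-bearing cells is described, and the share of cells with a plasmid is not given in the sources used here.

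For each row the table gives 1 level per group, in FPKM, the number of mapped fragments scaled to the length of the transcript and the size of the library. The 4 knockdown libraries are merged into a single value, and so are the 2 non-silencing libraries. The spread between libraries, the effect of each shRNA alone and the read depth cannot be obtained from such values, and no difference below was tested. A difference is given as a log2 ratio of knockdown over non-silencing level after 0.1 FPKM was added to both, and a row is called expressed where it was tested by the authors' software and its mean over both groups was at least 1 FPKM. In these bulk values fewer cells of a type and less RNA per cell cannot be told apart.

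Neurod2 itself had 60.3 FPKM in knockdown cultures and 105 FPKM in non-silencing cultures, a log2 ratio of −0.80, lower in the group labelled as knockdown. Markers matched cultures rich in excitatory neurons: Neurod6 was at 290 FPKM in knockdown and 274 FPKM in non-silencing cultures, and the general neuronal marker Tubb3 at 879 and 839 FPKM in the same order of groups. Progenitor, astrocyte and oligodendrocyte markers were present too, led by Top2a, Slc1a3 and Olig1, each above 50 FPKM in both groups. Of the 4 matched progenitor markers, 2 had a log2 ratio below 0 and 2 above. Eomes was the lowest of them, at 16.1 FPKM in knockdown and 21.2 FPKM in non-silencing cultures (−0.39). Of the 5 oligodendrocyte markers, 4 lay below 0 and 1 above, and Sox10 was the lowest, at 1.96 and 2.76 FPKM (−0.47). The 4 matched microglial markers were all under 1 FPKM in both groups. Of the lists of other cell types, the 5 Cajal-Retzius markers summed to 16.1 FPKM in knockdown cultures and 9.07 FPKM in non-silencing cultures, and the 6 matched astrocyte markers to 215 and 230 FPKM. Of the 5 astrocyte markers with a mean of at least 1 FPKM, 3 had a log2 ratio below 0. Gfap was the lowest, at 35.1 FPKM in knockdown and 57.4 FPKM in non-silencing cultures (−0.71). The 2 above 0 were Aldoc (0.13) and Slc1a3 (0.05). The highest markers of the rarer types were Calb2 for Cajal-Retzius cells, at 6.59 FPKM in knockdown and 3.54 FPKM in non-silencing cultures, Sst for interneurons, at 6.55 and 3.29 FPKM, Dcn for fibroblasts and mural cells, at 1.56 and 1.55 FPKM, and Aif1 for microglia, at 0.183 and 0.0847 FPKM. The interneuron list, of which 3 of 6 markers had a value, summed to 8.73 FPKM in knockdown and 5.79 FPKM in non-silencing cultures, but Gad2 in it had 2.18 and 2.49 FPKM. The 7 markers of fibroblasts and mural cells summed to 6.94 FPKM in knockdown and 4.25 FPKM in non-silencing cultures. Of these, Col1a1 (0.975 and 0.125 FPKM), Col3a1 (0.765 and 0.171), Postn (0.834 and 0.262) and Acta2 (1.28 and 0.409) were higher in knockdown cultures. Dcn was level, and Pdgfrb (1.38 and 1.56 FPKM) and Lum (0.138 and 0.165) were lower there. The part of cell makeup in the members' values was not tested.

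mTOR is a kinase that works in a pair of complexes, and in mTORC1 it is joined by RAPTOR to drive protein synthesis and restrain autophagy. Amino acids act on it at the lysosome: Rag GTPases, anchored there by the Ragulator, bring mTORC1 to the membrane, where the small GTPase RHEB switches it on. GATOR1 turns the Rags off, GATOR2 opposes GATOR1, the sestrins hold GATOR2 back, and the TSC complex turns RHEB off. In cortical neurons the pathway is known for its control of cell size, dendrite growth and migration, and loss of TSC or GATOR1 genes is a cause of cortical malformation and epilepsy in humans.

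To show what the members' promoters share, the 300 bases around each start site, 250 before and 50 after, were taken from RefSeq on the GRCm38.p6 build. Windows were present for 33 of the 37 members. They were searched for 4 short motifs on both strands: CACGTG, the core of the site bound by TFEB and its relatives and by other factors of the same class; TGATGNAA, the core of the element bound by ATF4 with its partners; and CAGATG and CAGCTG, E-boxes of the type that NEUROD factors bind. CACGTG, which reads the same on both strands, stood in 21.2% of the members' promoters, 7 of 33, and in 8.09% of all 27025 genes with a RefSeq window. No match of one motif shared a base with a match of another. The 10 matches are shown because this was the one motif carried by more than 4 members, with the match in capitals and 10 bases on each side, 5′ to 3′ on the gene's strand.
Fnip1 (75 bases before the start): agtttgctgcCACGTGatacggctcg
Lamtor1 (68 bases before): gccttcctatCACGTGccgcgggtcc
Lamtor4 (120 bases before): agaaagttaaCACGTGaacagctttt
Lamtor4 (104 bases before): aacagcttttCACGTGtaaaccaaac
Rheb (96 bases before): cgcgcgcggtCACGTGggtgtgttgt
Rragb (127 bases before): gagcccgggcCACGTGatggcgggtg
Rragb (36 bases before): agggtagcggCACGTGacaggccctg
Rragb (3 bases before): ggcaggttccCACGTGatcctggcct
Rragc (112 bases before): tgattccgggCACGTGatagtaccac
Tbc1d7 (53 bases before): ggttaacatcCACGTGtgggtgggac

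Lamtor4 also held the only TGATGNAA match among the members, read on the opposite strand as TTACATCA from 22 bases before the start. That motif stood in 4.51% of genes overall. The 250 bases before its start (GRCm38.p6, plus strand, chr5:138255232-138255481) are given in full, with these matches in capitals.
Lamtor4: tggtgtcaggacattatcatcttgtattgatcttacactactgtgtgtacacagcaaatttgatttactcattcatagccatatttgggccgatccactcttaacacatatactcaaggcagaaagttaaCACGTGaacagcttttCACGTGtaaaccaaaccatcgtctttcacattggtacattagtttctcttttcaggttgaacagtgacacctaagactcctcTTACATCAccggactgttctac

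The NEUROD-type E-boxes were no more frequent in the members than elsewhere: CAGATG stood in 4 of 33 members (12.1%, against 19.2% of all genes), namely Lamtor4, Tbc1d7, Tfeb and Tsc1, and CAGCTG in 2, Rragd and Tsc2 (6.06%, against 18.3%). A match is a description of letters in this window and not a shown binding site.

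As a set, the members were at moderate and closely matched levels in both groups. Their median level was 16.0 FPKM in knockdown cultures and 16.3 FPKM in non-silencing cultures, against 12.4 and 12.7 FPKM over all 12694 expressed rows, and 26 of the 35 members lay between 10 and 30 FPKM in both groups. Of the 35, 34 reached a mean of 1 FPKM and Tfeb did not. The median log2 ratio of these 34 was −0.06, beside −0.03 over all expressed rows. Below 0 lay 22 members (64.7%, beside 58.4% of all expressed rows), and 12 lay above. None of the 34 lay past 1.5-fold on its own strand, against 3.91% of expressed rows past that fold in either direction (1.56% higher and 2.35% lower). Tsc2 and Lamtor1, which had no row by the rule, are not in this count. With the highest row on either strand the count was 1, from a row at Wdr59, and the median was −0.05. Past 1.2-fold lay 3 members, with Akt1s1 higher and Deptor and Eif4ebp2 lower, which is 8.82% of the members against 13.7% of expressed rows (5.66% higher and 8.01% lower). With rows on either strand Wdr59 and Rptor made them 5. Among the 8786 expressed rows with a mean of 5 to 100 FPKM, 8.49% lay past 1.2-fold. Past 1.5-fold lay 75 of these rows higher and 147 lower. Of the 3 members past 1.2-fold, only Eif4ebp2 (mean 9.22 FPKM) lies in that band. Akt1s1 (269 FPKM) lies above it and Deptor (1.15 FPKM) below, so the share of the members is not one at like level. Within 1.1-fold lay 22 of the 34, and so did both quartiles of all expressed rows (log2 ratios of −0.13 and 0.07).

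**Figure D1:**
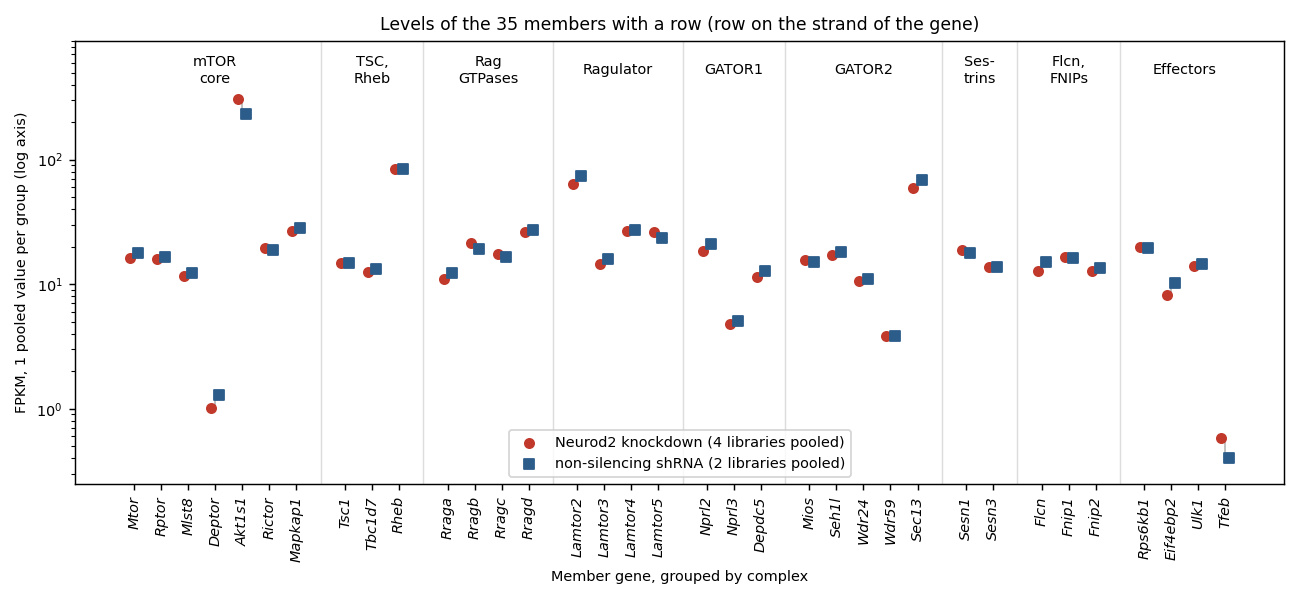
Level of each of the 35 members with a row, in FPKM on a log axis, grouped by complex, from the row on the strand of the gene. Circles are the pooled value of 4 Neurod2 knockdown libraries and squares that of 2 non-silencing libraries, with no error bars because each group has 1 value; most pairs nearly coincide between 10 and 30 FPKM, and Akt1s1 stands highest, at 306 and 232 FPKM.

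Mtor, Mlst8 and Rptor were among the members below 0, as were 58.4% of all expressed rows. Mtor, the kinase itself, had 16.2 FPKM in knockdown cultures and 17.9 FPKM in non-silencing cultures (log2 ratio −0.14). Mlst8, which stabilises the kinase domain in both complexes, had 11.7 and 12.3 FPKM in the same order (−0.08). The mTORC2 subunits stayed as close: Rictor, the scaffold that defines that complex, had 19.6 FPKM in knockdown and 18.9 FPKM in non-silencing cultures (0.05), and Mapkap1, which codes for SIN1, had 26.9 and 28.5 FPKM (−0.08).

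Rptor codes for RAPTOR, the scaffold that picks the substrates of mTORC1. Its gene lies on chromosome 11, plus strand, from 119602905 to 119899576, and spans 34 exons in its principal transcript. The table has 5 rows at the same position for it, 3 of them tested, and the locus also takes in the plus-strand neighbour Chmp6. On the plus strand, 1 tested row, made of 1 transcript, had 15.9 FPKM in knockdown cultures and 16.5 FPKM in non-silencing cultures (−0.06), and the other, made of 7, had 13.2 and 13.3 FPKM (−0.003). Neither row differed between the groups by as much as 1.1-fold, whichever of them is that of Rptor. The highest row at this position had 13.6 FPKM in knockdown and 19.2 FPKM in non-silencing cultures (−0.50), but it lies on the minus strand and is not counted as Rptor.

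The inhibitory subunits of mTORC1 stood at both ends of the range of levels. Deptor, which binds mTOR and restrains it, had the lowest level and the lowest log2 ratio of the 34 members, at 1.01 FPKM in knockdown and 1.29 FPKM in non-silencing cultures (−0.33). At this level the ratio moves with the constant added, to −0.19 with 1 FPKM, and it was −0.54 when its 3 rows, 2 of them on the other strand, were summed. Akt1s1, which codes for PRAS40, an inhibitor that AKT phosphorylates and so releases from mTORC1, was the highest member, at 306 FPKM in knockdown cultures and 232 FPKM in non-silencing cultures. Its log2 ratio of 0.40 was the highest of the members and above that of 97.1% of expressed rows.

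The Akt1s1 gene lies on chromosome 7, plus strand, from 44848991 to 44855421, and 1 row covers it. An annotated microRNA gene, Mir707, sits in an intron on the same strand, at 44849699 to 44849771. Its mature sequence is shown because no other member locus holds a microRNA on the strand of its gene, with the seed (bases 2 to 8) in capitals.
mmu-miR-707: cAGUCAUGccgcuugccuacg
The table cannot separate reads of a small RNA gene from those of its host, and the part of Mir707 in the level or ratio of Akt1s1 was not tested.

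Among the genes that set RHEB and had a row by the rule, the values were nearly equal. Tsc2, which had none, is described below. Tsc1, which stabilises the complex that inactivates RHEB, had 14.7 FPKM in both groups (0.003). Tbc1d7, the remaining subunit with a row, had 12.5 FPKM in knockdown and 13.2 FPKM in non-silencing cultures (−0.07). Rheb, the direct activator of mTORC1, was the highest of this group at 84.7 FPKM in knockdown and 83.8 FPKM in non-silencing cultures (0.01).

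Tsc2, the catalytic subunit of the TSC complex, and Lamtor1, the lipid-anchored subunit that holds the Ragulator on the lysosome, had no row by the rule. Their best overlaps, 0.445 and 0.490 of the union, fell just short, while Fnip2, at 0.502, was just inside. The rows nearest to Tsc2, a minus-strand gene, also span Pkd1, a plus-strand gene. The row on the minus strand, made of 10 transcripts, had 66.0 FPKM in knockdown cultures and 40.7 FPKM in non-silencing cultures (0.70), and the row on the plus strand had 15.7 and 15.1 FPKM (0.05). The minus-strand value is past 1.5-fold, and by the overlap rule it is not counted among the members. No overlap looser than 0.5 was among the alternatives. The row nearest to Lamtor1 lies on the other strand, that of Lrrc51, and had 4.32 and 4.13 FPKM.

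The 4 Rag GTPase genes were at similar levels with no common direction (median log2 ratio 0.01). RAGA and RAGB act as alternatives on one side of the heterodimer, and these were on opposite sides: Rraga had 10.9 FPKM in knockdown and 12.2 FPKM in non-silencing cultures (−0.16), and Rragb had 21.4 and 19.3 FPKM (0.15). RAGC and RAGD fill the other side of the dimer. Rragc had 17.4 FPKM in knockdown and 16.5 FPKM in non-silencing cultures (0.07), and Rragd 26.3 and 27.0 FPKM (−0.04). Rragb, with 3 CACGTG matches in its promoter, and Rragc, with 1, were the Rag genes above 0. Of the other members with this motif and a value, Rheb and Fnip1 lay above 0 (0.01 and 0.02), and Lamtor4 and Tbc1d7 below (−0.03 and −0.07). Whether the motif goes with the ratio was not tested.

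The Ragulator, the scaffold that anchors and activates the Rags, was measured through 4 of its 5 subunits, with a median log2 ratio of −0.08. Lamtor2 was the highest, at 63.9 FPKM in knockdown and 73.2 FPKM in non-silencing cultures (−0.20). Lamtor3, its partner in a roadblock-domain dimer, had 14.497 and 15.8 FPKM (−0.12). In the second such pair, Lamtor4 had 26.5 FPKM in knockdown and 27.1 FPKM in non-silencing cultures (−0.03), and Lamtor5 had 26.2 and 23.5 FPKM (0.16), the second highest log2 ratio of the members. The Ragulator genes thus lay on both sides of 0, and none passed 1.2-fold.

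GATOR1, which inactivates RAGA and RAGB, had the lowest median of the complexes, −0.15 over 3 genes. Nprl2 had 18.4 FPKM in knockdown and 21.2 FPKM in non-silencing cultures (−0.20). Depdc5, the subunit most often mutated in familial focal epilepsy, had 11.5 and 12.7 FPKM (−0.15). Nprl3 had 4.82 and 5.02 FPKM (−0.05) on its own, minus strand. A higher row on the plus strand, the strand of the gene Mpg within the same locus, had 6.40 and 6.27 FPKM (0.03).

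In GATOR2, all 5 genes were within 1.2-fold on their own strand. Mios had 15.6 FPKM in knockdown and 15.0 FPKM in non-silencing cultures (0.06), Wdr24 had 10.6 and 11.0 FPKM (−0.06), and Seh1l had 17.0 and 18.1 FPKM (−0.08). Sec13 was the highest of the complex, at 59.04 FPKM in knockdown and 68.5 FPKM in non-silencing cultures (−0.21, the fourth lowest log2 ratio of the members). Seh1l and Sec13 also serve in the nuclear pore, and Sec13 in the coat of vesicles that leave the endoplasmic reticulum, so their levels are not those of GATOR2 alone.

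Wdr59 codes for a WD-repeat and RING-domain subunit of GATOR2. It lies on chromosome 8, minus strand, from 111448797 to 111522092, with 27 exons, and the table has 2 tested rows at its position. The row on the minus strand, made of 3 transcripts, had 3.85 FPKM in knockdown cultures and 3.83 FPKM in non-silencing cultures (0.008), the lowest level in GATOR2. The other row, made of 1 transcript, had 10.7 FPKM in knockdown and 4.56 FPKM in non-silencing cultures, a ratio of 2.31-fold (log2 1.21), above that of 99.4% of expressed rows. It lies on the plus strand, opposite to Wdr59, so the gap between the groups at this position is not that of the Wdr59 row.

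A microRNA gene, Mir1957b, is annotated within the Wdr59 locus on that plus strand, at 111450200 to 111450322, where it overlaps an exon of Wdr59. Whether the plus-strand row is that of Mir1957b was not tested. The labels and methods do not say whether the libraries keep strand, and without strand the reads of overlapping genes can be shared among their rows.

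**Figure D2:**
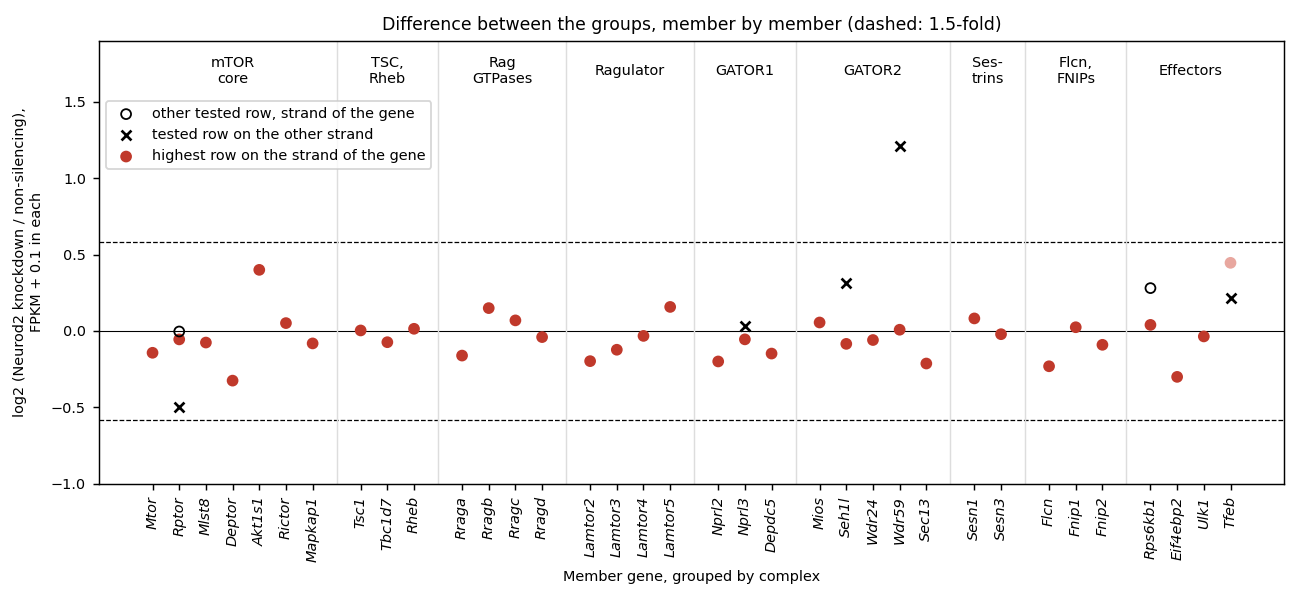
Log2 ratio of Neurod2 knockdown over non-silencing FPKM (0.1 added to each) for the members, grouped by complex. Filled circles are the highest row on the strand of the gene, paler for Tfeb, which is under 1 FPKM, open circles are other tested rows on that strand, crosses are tested rows on the other strand, and dashed lines mark 1.5-fold; no circle passes a line, and the cross at Wdr59, at 1.21, does.

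Upstream of GATOR2, the sestrins that belong to the set were level. Sesn1 had 18.9 FPKM in knockdown and 17.8 FPKM in non-silencing cultures (0.08), and Sesn3 had 13.6 and 13.8 FPKM (−0.02). The folliculin complex, which activates RAGC and RAGD, was slightly below 0 (median −0.09). Flcn, its catalytic subunit, had 12.8 FPKM in knockdown and 15.0 FPKM in non-silencing cultures (−0.23), the third lowest log2 ratio of the members. Its partners were closer, with 16.4 and 16.1 FPKM for Fnip1 (0.02) and 12.7 and 13.5 FPKM for Fnip2 (−0.09). The locus of the Fnip2 row also holds the coding gene Gm17359. Loci of other members hold another coding gene as well: Angptl7 for Mtor, Bricd5 for Mlst8 and 4930535I16Rik for Rragc. The part of these genes in the levels was not tested.

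Downstream, Rps6kb1, one of the S6 kinases that mTORC1 phosphorylates, had 19.9 FPKM in knockdown and 19.4 FPKM in non-silencing cultures (0.04). Ulk1, the kinase that starts autophagy and that mTORC1 holds back, had 14.1 and 14.46 FPKM (−0.04). Eif4ebp2, the main translational repressor of its family in brain, had 8.25 FPKM in knockdown and 10.2 FPKM in non-silencing cultures (−0.30), the second lowest log2 ratio of the members, and a single row with no other gene inside covered it. Tfeb, a transcription factor of lysosomal genes that mTORC1 keeps in the cytosol, was low in both groups, at 0.581 FPKM in knockdown and 0.400 FPKM in non-silencing cultures in an untested row on its own strand, and 0.867 and 0.732 FPKM in a row on the other strand.

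The order of levels within the set was nearly the same in both groups (Spearman rho 0.99 over 34 members, which share their libraries). No such rho was taken over all expressed rows, so the value cannot be called particular to the set. The log2 ratio had a rho of 0.10 with the gene span, which ran over 1.62 to 297 kb, and of 0.34 with the mean level. The 6 members with CACGTG in their promoter and a value had log2 ratios between −0.07 and 0.15 (median 0.02), and the 24 members with a window and no such match had a median of −0.06, within a range of −0.30 to 0.40. These are descriptions over genes, which are not independent of each other.

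To set the members beside the rest of the pathway, 55 other mTOR pathway genes were counted by the same rule, 50 of which had a row and 46 a mean of at least 1 FPKM. This list was likewise chosen with earlier results of these data known, among them those of Sesn2 and Ddit4, so its count is no independent evidence. Past 1.5-fold lay 6 of the 46, with 2 higher and 4 lower, beside 3.91% of all expressed rows (1.56% higher and 2.35% lower). The median log2 ratio of the 46 was −0.09. Eif4ebp1, the relative of Eif4ebp2, had 11.2 FPKM in knockdown and 23.1 FPKM in non-silencing cultures (−1.04). Sesn2, the leucine-sensing relative of Sesn1 and Sesn3, had 10.1 and 17.7 FPKM (−0.81), Slc7a5, the light chain of the LAT1 leucine transporter, had 49.0 and 78.7 FPKM (−0.68), and Ddit4, whose product REDD1 activates the TSC complex, had 40.9 and 63.9 FPKM (−0.64).

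Eif4ebp1 and Sesn2 had a lower level in knockdown cultures while their relatives in the set did not pass 1.5-fold. In the sestrins the log2 ratios were −0.81 for Sesn2, 0.08 for Sesn1 and −0.02 for Sesn3. Between the translational repressors they were −1.04 for Eif4ebp1 and −0.30 for Eif4ebp2. Whether relatives differ in ratio was not tested. The other amino acid sensing genes outside the set with a mean of at least 1 FPKM were closer: Castor2, Bmt2, Slc38a9 and Slc38a2 lay between −0.17 and 0.10, while Slc3a2, the heavy chain of LAT1, and Lars, the leucyl-tRNA synthetase, had −0.31 and −0.33.

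The 2 higher genes were Atg13 and Akt1. Atg13, a subunit of the complex that ULK1 works in, had 25.03 FPKM in knockdown and 7.87 FPKM in non-silencing cultures (1.66) in its only row, which is on its own strand, beside −0.04 for Ulk1. Akt1, the kinase that phosphorylates PRAS40, had 105 and 68.1 FPKM (0.62) in 1 row, and 67.7 and 76.3 FPKM (−0.17) in the other, both on its own strand, so that the count of higher genes was 1 with rows summed. An annotated small RNA gene lies inside the Akt1 locus, and its part in these levels was not tested. With loci that hold a small RNA gene left out, the count of higher genes was also 1.

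**Figure D3:**
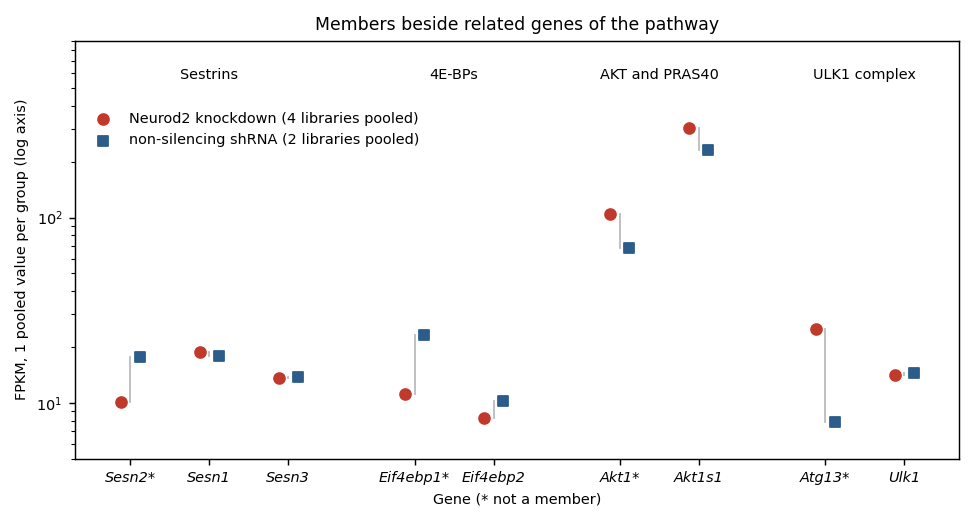
FPKM on a log axis of members beside related genes that are not members (starred): the sestrins, the 4E-BP repressors, Akt1 with Akt1s1, and Atg13 with Ulk1. Akt1 is drawn from its higher row only, at 105 and 68.1 FPKM, and its other row, at 67.7 and 76.3 FPKM, is left out. Circles are Neurod2 knockdown and squares non-silencing cultures, 1 pooled value each; Sesn2 and Eif4ebp1 are lower in knockdown cultures, at 10.1 and 11.2 FPKM against 17.7 and 23.1, while Sesn1 and Sesn3 nearly coincide.

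The lysosomal genes around mTORC1 were within 1.2-fold. The v-ATPase is the proton pump that couples amino acids in the lysosome to the Ragulator, and 14 of its subunits gave a ratio, with a median of −0.03, 8 of them below 0 and none past 1.2-fold. Atp6v0a1 gave none, because its highest row, which the authors' software did not test, was at 75.3 FPKM in knockdown cultures and listed at 0 in non-silencing cultures; its tested row had 36.02 and 38.2 FPKM. Of 23 lysosomal genes, 19 had a value, with a median of −0.05 and a range of −0.24 to 0.19. Of these 19, 17 lay below 0 (89.5%, beside 58.4% of all expressed rows and 64.7% of the members). The members ran over −0.33 to 0.40.

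**Figure D4:**
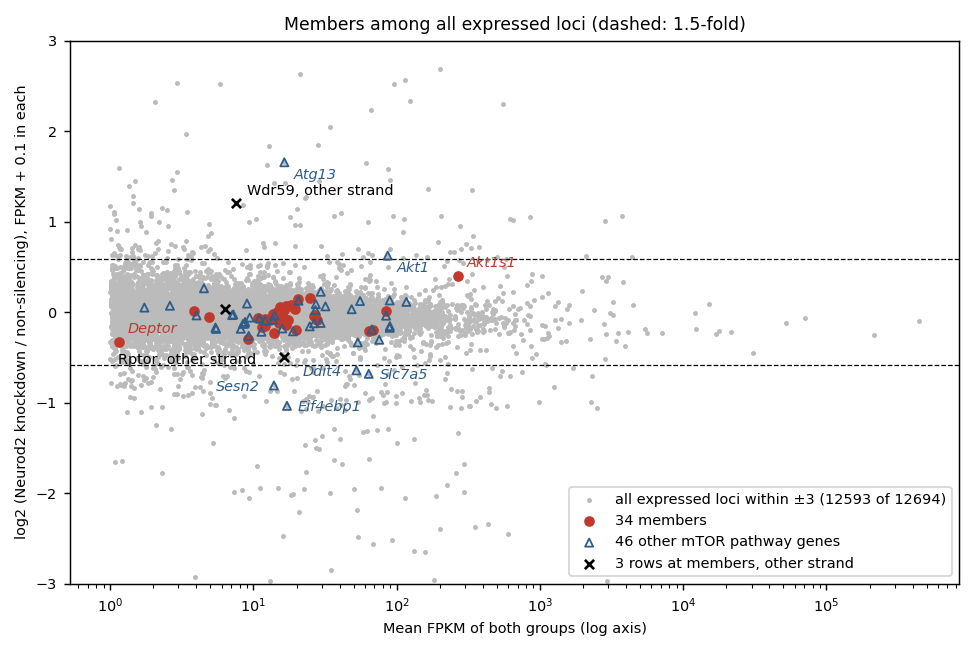
Log2 ratio of Neurod2 knockdown over non-silencing FPKM (0.1 added to each) against the mean FPKM of both groups on a log axis. Grey points are all expressed rows within 3 log2 units (12593 of 12694), red circles the 34 members, open triangles the 46 other mTOR pathway genes, crosses 3 rows on the other strand at members, and dashed lines 1.5-fold; the members gather around 0, and Eif4ebp1, Sesn2, Slc7a5 and Ddit4 lie under the lower line.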

How the data were processed

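RNA-Seq levels of 37 member genes were taken from the authors' comparison of 4 Neurod2 knockdown and 2 non-silencing libraries. TopHat (mapping), Cufflinks (assembly of transcripts) and Cuffdiff (comparison) were the authors' tools, with mm10 named in the submitters' processing notes. No version is stated in those sources. The deposited table holds 1 FPKM per group and row, which the authors scaled to transcript length and library size, so read depth is unknown and no counting interval can be given. It also holds the authors' log2 fold change, test statistic (a score), p-value and q-value, none of which is used as a result.

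A spreadsheet had turned many FPKM cells into times of day (8137 cells for certain). Of 13498 tested rows, 8628 stood as deposited and 4838 were restored, by listing the numbers of up to 6 digits that give the time seen and keeping the pair whose ratio matched the deposited log2 fold within 2e-05, the single use made of that column. 32 could not be restored. Of the 35 members, 24 were restored and 11 stood as deposited. The step was tested on simulated data, with the outcome not reported here. In a restored row the ratio of the levels equals the deposited log2 fold, within that tolerance, by this choice of pair.

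Rows were matched to GENCODE M21 spans (GRCm38, the assembly of mm10) at an overlap of 0.5 of the union. Where several rows matched, the one with the highest mean FPKM on the strand of the gene was used, with strand read from the order of row numbers. This was added after the data were seen, and the rule planned earlier, the highest row on either strand, is given beside it. Log2 ratios were taken after adding 0.1 FPKM to both groups, over rows with a mean of at least 1 FPKM, in python 3.11.15 with pandas 2.3.3. The planned tests on single libraries could not be run on pooled values. Every member is named, as are Neurod2, the other pathway genes past 1.5-fold and the leading markers. Atp6v0a1, Slc3a2, Lars, Castor2, Bmt2, Slc38a9, Slc38a2, Gad2, Col1a1, Col3a1, Postn, Acta2, Pdgfrb, Lum, Gfap, Aldoc, Eomes and Sox10 were named after their values were seen. The members and lists were chosen with earlier results of these data known. Alternatives covered the constant added, centring, the choice of rows, the filters, the overlap, restored cells and the fold.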

Additional observations from a re-analysis of the deposited data

How the results depend on the processing

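The count of members past 1.5-fold, 1 of 34 with the highest row on either strand, rested on a row at Wdr59. It was 0 with rows on the strand of the gene only, an alternative chosen after seeing the data, since that row lies on the other strand. It was also 0 among the 24 expressed members with a single row, 0 among the 27 whose locus holds no small RNA gene and 0 among the 8 with no time-formatted cell, and Wdr59 is left out by construction in these 3. With a 1.2-fold limit the count was 5, of which 2 higher and 3 lower, and it was 1 under the other alternatives. The median log2 ratio of the members lay between −0.06 and −0.02 under every alternative run, and the median of each complex moved by less than 0.1. Of 170 values of single members under 5 settings, 163 moved by less than 0.1, none past 1.5-fold changed sign, and 7 moved more: Deptor and Wdr59 with 1 FPKM added (−0.19 and 1.07), Rptor, Deptor and Wdr59 with rows summed over both strands (−0.20, −0.54 and 0.79), and Rptor and Wdr59 with rows on their own strand (−0.06 and 0.008). Leaving out loci with another coding gene inside, or Wdr59, was also chosen after seeing the data. No paired analysis was possible because the table holds 1 pooled value per group, which also left the alternatives without each replicate not run. With 1 value per group, none of the differences has a replicate check, and the depth that would set the precision of low levels, such as those of Deptor and Tfeb, is unknown.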
